A study of Mustela putorius furo and Mus musculus with 4 samples.

Results

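The nuclear-encoded genes of the mitochondrial respiratory chain were compared between cultured ferret and mouse astrocytes. The genes were taken by symbol: subunits of complex I (Nduf followed by a, b, c, s or v), its numbered assembly factors (Ndufaf), complex II (Sdha to Sdhd), symbols of complex III beginning with Uqcr, and numbered Cox symbols of complex IV. Among 14584 ferret and 55139 mouse symbols, 13373 were shared, and 44 of the shared symbols belonged to these genes. Symbols are written here in the mouse form, and the plots give them in capitals.

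Primary astrocytes were prepared from the cerebral cortex of sable ferrets (Mustela putorius furo) at postnatal day 1 (P1) and of wild-type ICR mice at P1 to P3, with 2 libraries for each species. Mixed glial cells of both species grew in medium with fetal bovine serum for 14 days, the flasks were shaken to discard loosely attached cells, and the remaining cells were replated. Serum was withdrawn before RNA was harvested, and the serum-free medium of both species held sodium pyruvate, glutamine, N-acetyl cysteine and heparin-binding EGF-like growth factor. The tissue of a single ferret pup was spread over several flasks, whereas several mouse pups were pooled in a flask. The labels do not say whether the 2 libraries of a species came from separate cultures, so the p-values measure the spread between these libraries, which may be technical.

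The respiratory chain passes electrons from NADH and succinate to oxygen and pumps protons across the inner mitochondrial membrane. Complex I takes electrons from NADH and complex II from succinate, both hand them to ubiquinone, complex III carries them on to cytochrome c, and complex IV reduces oxygen. Most subunits are encoded in the nucleus and imported, a few core subunits are encoded by mitochondrial DNA, and dedicated assembly factors put the complexes together and insert their metal centers. Astrocytes rely heavily on glycolysis, yet they also hold a complete respiratory chain.

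Levels were given as FPKM, fragments per kilobase of exon scaled also by the number of mapped reads, which divides each gene's fragments by the exon length of its own species' gene model. Differences are log2(FPKM + 1) in ferret minus mouse, so a negative value means a lower level in ferret, and the added 1 makes the difference of a low gene smaller than its true size. A gene was tested where its mean FPKM reached 1 in at least one species, and it was called lower or higher where limma with Benjamini-Hochberg adjustment gave an adjusted p under 0.05 and the difference exceeded 1 in size. Each species was aligned to its own genome and annotation, so species, gene model and culture cannot be told apart in any difference below. Because these are bulk cultures, fewer cells of a type and less RNA per cell cannot be told apart either.

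The FPKM of the 13373 shared symbols summed to 227391 and 236543 in ferret replicates 1 and 2, and mouse replicates 1 and 2 had sums of 300465 and 308121. FPKM do not give the number of reads, and the read counts that the study lists were not used here. The smallest steps between low FPKM values put ferret replicate 1 at 1.17 times the depth of replicate 2 and mouse replicate 1 at 0.835 times. The median absolute difference between the 2 libraries of a species over the members was 0.087 in ferret and 0.068 in mouse on the log2 scale. Of 9 astrocyte markers, 5 were called lower (Aqp4, Aldh1l1, Slc1a3, Slc1a2 and Ndrg2) and 1 higher (S100b) in ferret. Slc1a2 passed the filter on low values through mouse alone. The summed FPKM of the 9 was 3506 and 3612 in ferret and 3096 and 3357 in mouse. Most of it came from Gfap (means 1502 in ferret and 1487 in mouse) and Aldoc (1660 and 965), so the sum does not show the lower markers. All 8 microglia markers were called lower, with sums of 2.54 and 2.41 in ferret against 494.5 and 471.3 in mouse, and Cx3cr1 was listed at 0 in ferret. Each of these 8 passed the filter on low values through mouse alone. All 6 fibroblast markers were lower too (sums 121.9 and 107.5 against 921.5 and 874.6), as were 3 of 5 tested pericyte and smooth muscle markers, with Kcnj8 higher (sums 193.2 and 168.9 against 1131 and 1173, with Rgs5 listed at 0 in ferret). Of 7 tested oligodendrocyte lineage markers 3 were higher in ferret (sums 167.9 and 186.7 against 67.0 and 67.2), as were both tested neuron markers (sums 10.3 and 11.3 against 1.67 and 1.92). The fibroblast markers Lum and Pcolce passed the filter through mouse alone. Kcnj8, the oligodendrocyte lineage marker Sox10 and the neuron marker Nefl passed it through ferret alone. Over all 10204 tested genes, 30.1% were called lower and 13.1% higher in ferret. The part of these other cells in the differences below was not tested.

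Fewer than all respiratory chain genes could be compared, because a symbol had to be present in the ferret FPKM values. A symbol missing from them does not mean that ferret lacks the gene. The rule found 44 symbols in ferret and 92 in mouse, and 48 mouse symbols had no ferret symbol. Of these 48, 39 are established chain or assembly genes and 9 are symbols outside the listed genes. In mouse the median of their mean FPKM was 109.6 for the 39, against 85.8 for the 44 members. They encode short proteins: 31 of the 39 had a mouse coding length under 500 bp, against 18 of the 44 members, and the median coding length was 318 bp against 526.5 bp. All 7 nuclear core subunits of complex I were matched, together with 14 of 29 accessory subunits and 5 of 8 assembly factors. Matched as well were Sdhc alone of 4 complex II subunits, 3 of 8 complex III subunits, 4 of 11 widely expressed complex IV subunits, 6 of 8 complex IV isoforms of restricted expression, and 4 of 10 assembly factors of complex IV and supercomplexes. The subunits encoded by mitochondrial DNA were not compared here.

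**Figure D1:**
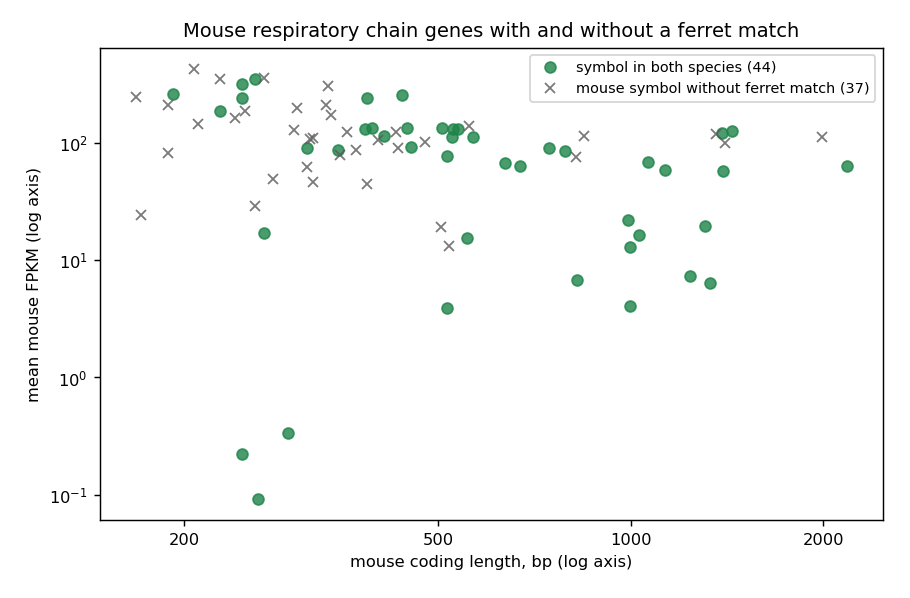
Mean mouse FPKM (log axis) against mouse coding length in bp (log axis) for 44 genes with a ferret symbol and 37 without, where Cox8b and Cox8c, at 0 in mouse, are not drawn. The genes without a ferret symbol lie toward short coding lengths, with a median of 318 bp, and had a median mean FPKM of 109.6.

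Of the 44 members, 41 passed the filter on low values. In ferret, 17 of the 41 (41.5%) were called lower, where 30.1% of all 10204 tested genes were, and 2 (4.88%) were called higher, where 13.1% of all genes were (43.2% in either direction). The other 22 were not called. By adjusted p alone, 34 of the 41 passed, where 88.6% of all genes did. The median difference over the members was -0.73, and over all tested genes it was -0.35. After each library was rescaled to the same sum, the median over all genes was -0.00 and 14 members were lower (21.7% of all genes) with 2 higher (19.3%). After quantile normalization the all-gene median was 0.08 and 15 members were lower (20.4%) with 2 higher (20.6%). Every member called after either scaling had been called before it, in the same direction.

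Summed over the 44 members, the FPKM was 2278 and 2389 in ferret and 4162 and 4341 in mouse. As a share of the sum over all shared symbols, ferret had 1.00% and 1.01%, and mouse 1.39% and 1.41%. The ferret mean of 2334 ± 78.1 (SD, n = 2) stood against a mouse mean of 4252 ± 126 (SD, n = 2), a ratio of mouse over ferret of 1.82 as deposited and 1.39 after rescaling. This ratio was 2.45 for the widely expressed subunits of complex IV and 1.90 for the accessory subunits of complex I (1.87 and 1.45 rescaled). It was 3.80 for Sdhc of complex II and 1.57 for complex III (2.90 and 1.20 rescaled). For the restricted isoforms of complex IV it was 1.29 and for its assembly factors 1.39 (0.981 and 1.06 rescaled). For the core subunits of complex I it was 1.28 and for its assembly factors 1.17, which turned to 0.973 and 0.893, ferret above mouse, after rescaling. Ndufaf3 gave 31.9 of the ferret mean of 66.0 for these factors, and 3 of the 5 stayed negative after rescaling.

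**Figure D2:**
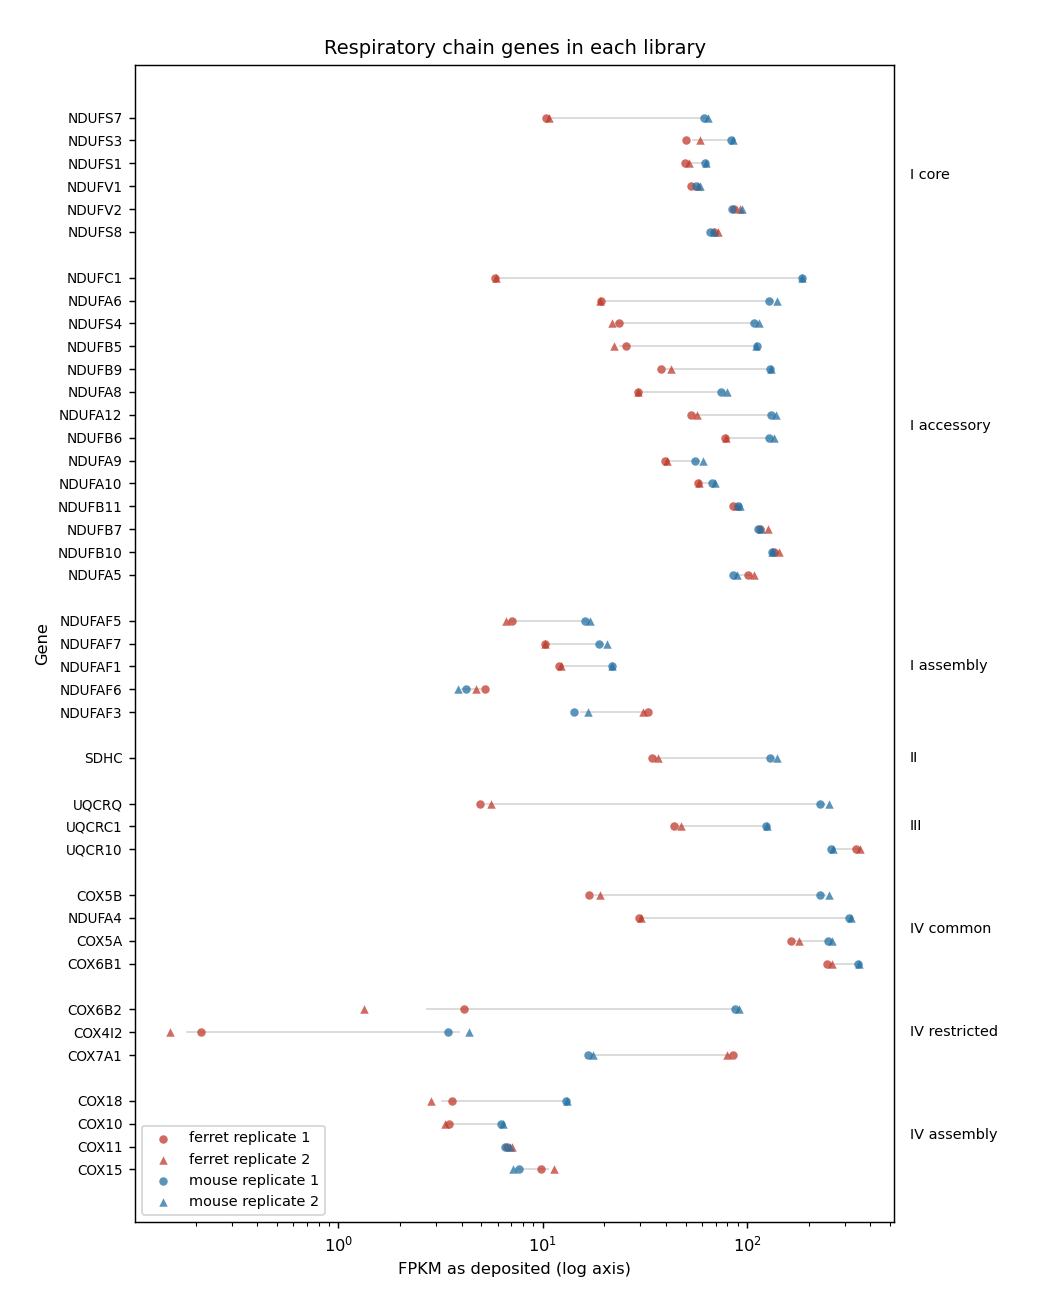
FPKM (horizontal log axis) of 40 of the tested members in each of the 2 ferret (red) and 2 mouse (blue) libraries, grouped by complex, with a gray line between the species means and the replicate number shown by the symbol's shape. The libraries of a species lie close together for most genes, and the ferret points of Uqcrq, Ndufc1, Cox5b and Ndufa4 fall far under their mouse points.

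The counts of each group below stand beside the shares of all tested genes, 30.1% lower and 13.1% higher as deposited. These shares were 21.7% and 19.3% after rescaling and 20.4% and 20.6% after quantile normalization. The core subunits of complex I hold its flavin, its iron-sulfur clusters and the ubiquinone site, and 1 of the 7 was called lower in ferret. That gene was Ndufs7, which holds the last iron-sulfur cluster before ubiquinone (GRCm38 chromosome 10, 80249121 to 80256794, plus strand, in mouse). Ndufs7 stood at 10.4 and 10.7 FPKM in ferret and at 61.6 and 64.0 in mouse. Both ferret libraries lay under both mouse libraries, and the log2 difference was -2.47 (SE 0.061, limma adjusted p = 2.68e-10), or 5.95-fold lower.

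Ndufs3, a subunit of the arm that leads to ubiquinone, was next at 50.0 and 58.8 FPKM in ferret against 83.6 and 84.7 in mouse, a log2 difference of -0.63 that did not reach the size required for a call. Ndufs1, the largest core subunit of the NADH-oxidizing end, stood at 49.8 and 52.2 against 62.4 and 63.2. The difference of Ndufs1 was -0.30 as deposited. Rescaling turned it to 0.09 and quantile normalization to 0.03, so no direction is given for it.

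The flavin-binding subunit Ndufv1 stood at 53.2 and 57.7 FPKM in ferret and 56.3 and 59.0 in mouse. Its partner Ndufv2 was at 86.3 and 91.7 against 84.0 and 94.5, with a difference of -0.00 (SE 0.070, limma adjusted p = 0.979), the smallest of the group. The iron-sulfur subunit Ndufs8 was at 68.6 and 72.2 against 66.1 and 68.5, a difference of 0.06 (limma adjusted p = 0.316). The libraries of the 2 species overlapped for Ndufv1 and Ndufv2 and did not for Ndufs8, and both scalings placed all 3 genes above mouse, by 0.27 to 0.45. The median over the 7 core genes was -0.30 as deposited, 0.09 after rescaling and 0.03 after quantile normalization.

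Accessory subunits surround the core of complex I and are needed for its assembly and stability. Of the 14 matched ones, 7 (50%, against 30.1% of all tested genes) were called lower in ferret, with none higher. The median difference was -1.005, where that of all genes was -0.35. After rescaling it was -0.62 with 5 genes lower (35.7%, against 21.7%). After quantile normalization it was -0.66 with 6 lower (42.9%, against 20.4%). The gene farthest down was Ndufc1, a short subunit of the membrane arm (chromosome 3, 51404677 to 51408988, minus strand). It measured 5.86 and 5.91 FPKM in ferret and 185.7 and 184.4 in mouse, a log2 difference of -4.75 (SE 0.057, limma adjusted p = 6.85e-12). In mouse this was the highest of the 21 matched complex I subunits and in ferret it was the lowest, 31.4-fold under mouse. The unmatched Ndufa3 stood higher in mouse, at 191.5 and 205.3 FPKM.

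Ndufa6, a member of the LYR family that binds the mitochondrial acyl carrier protein, was at 19.2 and 19.1 FPKM in ferret and 127.9 and 140.6 in mouse, a difference of -2.74 (SE 0.064, limma adjusted p = 1.95e-10). Ndufs4, an accessory subunit at the NADH-oxidizing end whose loss in mice gives a Leigh-like encephalopathy, was at 23.5 and 21.9 against 108.1 and 114.3 (-2.24, SE 0.063, limma adjusted p = 5.92e-10). In both genes the 2 species lay far apart in all libraries. The acyl carrier protein itself, Ndufab1, which also sits in complex I and lies outside the symbol rule, was at 64.4 and 68.8 against 145.1 and 146.1. Its difference of -1.12 was called lower as deposited and was under the required size after rescaling (-0.73) and quantile normalization (-0.77), and it was picked for mention because of its contact with Ndufa6.

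The other 4 accessory genes called lower were Ndufb5 (-2.17) and Ndufb9 (-1.68), both of the membrane arm, Ndufa8 (-1.37), which faces the intermembrane space, and Ndufa12 (-1.28). Ndufa8 missed the call after rescaling (-0.99) and Ndufa12 after both scalings (-0.89 and -0.95). The remaining 7 accessory genes were not called and ran from -0.73 for Ndufb6 to 0.26 for Ndufa5. Among them Ndufb7, which faces the intermembrane space, had the smallest difference at 115.2 and 125.8 FPKM in ferret and 112.6 and 116.9 in mouse (0.07, limma adjusted p = 0.324), and its libraries overlapped between species. Ndufb10, of the same side of the membrane arm, stood at 135.5 and 143.6 against 131.9 and 131.8.

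The 5 matched assembly factors of complex I split in direction. Ndufaf3, which acts early in the assembly of the arm that leads to ubiquinone, was called higher in ferret at 32.7 and 31.1 FPKM against 14.3 and 16.6 in mouse (1.00, SE 0.077, limma adjusted p = 7.82e-07; chromosome 9, 108565537 to 108567434, minus strand, in mouse). Both ferret libraries lay above both mouse libraries. The difference sat at the size required for a call and fell short of it without ferret replicate 1 (0.97) or without mouse replicate 1 (0.90), while both scalings made it larger (1.38 and 1.41).

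Ndufaf5, which hydroxylates an arginine of Ndufs7, was called lower at 7.07 and 6.59 FPKM in ferret and 16.1 and 16.9 in mouse (-1.16, SE 0.070, limma adjusted p = 1.26e-07), and the call was lost after both scalings (-0.81 and -0.74). Ndufaf7, a methyltransferase, and Ndufaf1, which works on the membrane arm, were not called at -0.88 and -0.79. Ndufaf6 had the smallest difference of the group, at 5.20 and 4.69 against 4.23 and 3.86 (0.24, limma adjusted p = 0.0201). The median over the 5 factors was -0.79 as deposited, -0.43 rescaled and -0.39 after quantile normalization.

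**Figure D3:**
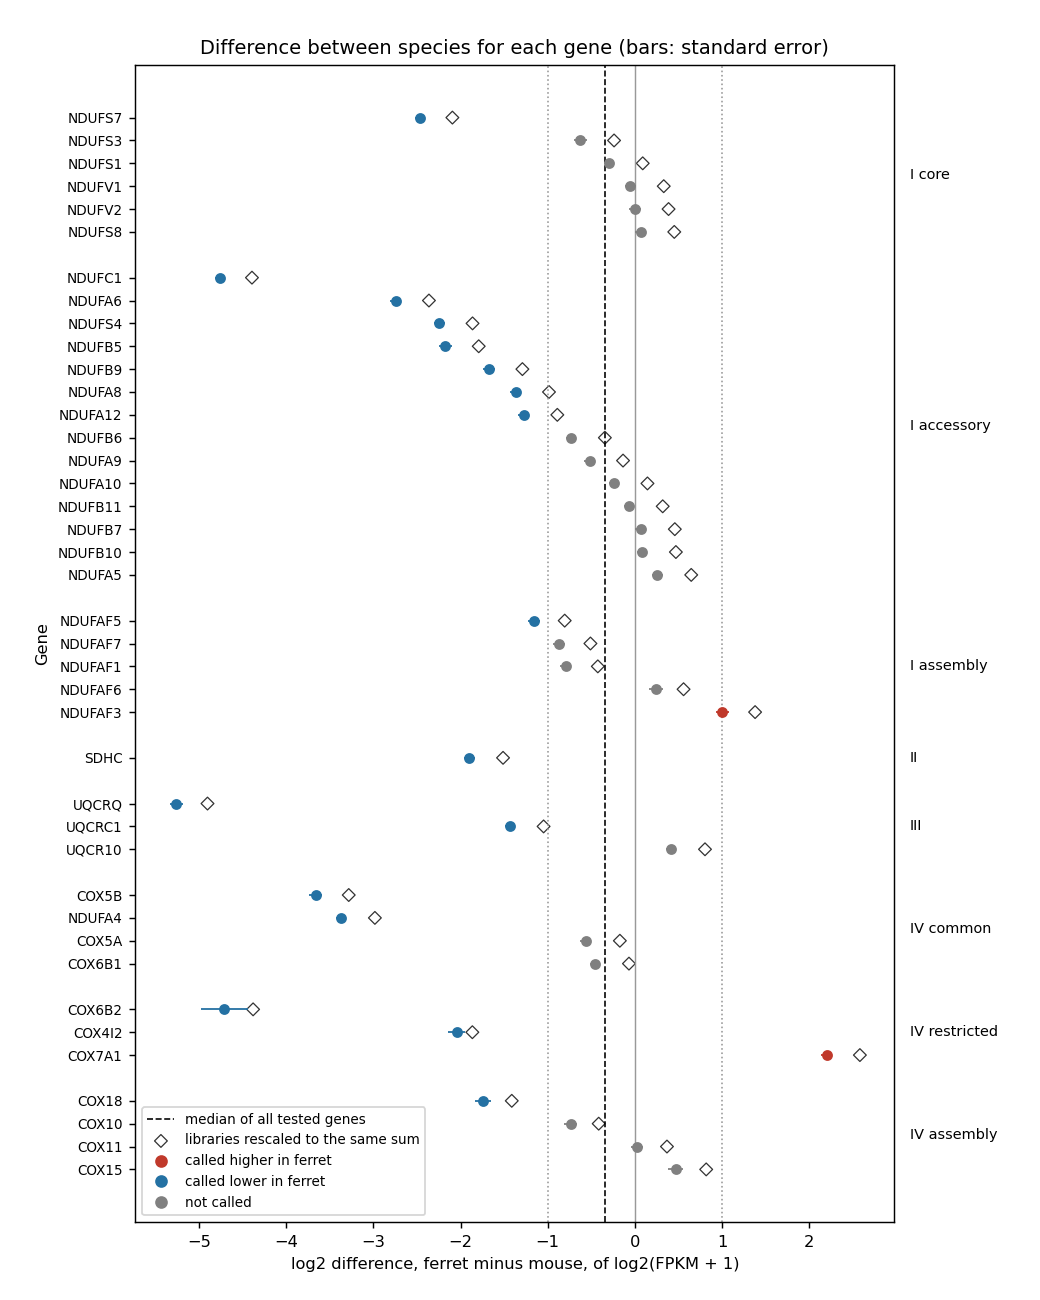
Log2 difference of ferret minus mouse (horizontal axis) for 40 of the tested members, as deposited (circles, colored by call, bars for the standard error) and after rescaling (open diamonds), with a dashed line at the median of all tested genes and dotted lines at the size required for a call. As deposited, the range runs from -5.26 for Uqcrq to 2.201 for Cox7a1, and 30 of the 40 circles lie under 0.

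Complex II links the citric acid cycle to the chain, and Sdhc, one of the subunits that anchor it in the membrane, was its sole matched gene. Sdhc was at 34.0 and 36.5 FPKM in ferret and at 128.7 and 139.5 in mouse (chromosome 1, 171127165 to 171150603, minus strand). The log2 difference was -1.90 (SE 0.065, limma adjusted p = 2.27e-09), or 3.80-fold lower, and the species did not overlap. The mouse genes Sdha, Sdhb and Sdhd had no matching symbol in the ferret FPKM values, and Sdhb stood at 114.3 and 115.1 FPKM in mouse.

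Of the 3 matched subunits of complex III, 2 were called lower. Uqcrq, a short subunit that lies against cytochrome b, stood at 4.91 and 5.61 FPKM in ferret and at 228.2 and 250.1 in mouse (chromosome 11, 53427922 to 53430831, minus strand). Its log2 difference of -5.26 (SE 0.074, limma adjusted p = 1.40e-11) was the largest of all members, a 45.5-fold lower level. Uqcrc1, a core protein of the matrix side, was at 43.7 and 47.5 against 124.1 and 125.5 (-1.43, SE 0.062, limma adjusted p = 1.05e-08).

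Uqcr10, another short subunit of complex III, lay the other way without being called. It stood at 338.7 and 355.8 FPKM in ferret, the highest level of all members there, and at 257.8 and 263.2 in mouse (0.41, limma adjusted p = 9.15e-05). Both ferret libraries lay above both mouse libraries. The genes Uqcrc2 and Uqcrfs1, the other core protein and the Rieske iron-sulfur protein, had no ferret match here.

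Of the 4 matched widely expressed subunits of complex IV, 2 were called lower. Cox5b, a zinc-binding subunit of the matrix side, was at 16.9 and 19.0 FPKM in ferret and at 228.2 and 249.9 in mouse (chromosome 1, 36691449 to 36693681, plus strand), a log2 difference of -3.66 (SE 0.073, limma adjusted p = 8.50e-11). Ndufa4, named for complex I and since placed in complex IV, was at 29.6 and 30.3 against 313.6 and 323.7 (chromosome 6, 11900292 to 11907497, minus strand; -3.37, SE 0.056, limma adjusted p = 3.43e-11). The ferret levels were thus 13.3-fold and 10.6-fold lower.

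The other 2 were not called. Cox5a, the partner of Cox5b, was at 164.3 and 178.4 FPKM in ferret and 247.9 and 259.0 in mouse (-0.56). Cox6b1, which joins the monomers of complex IV on the intermembrane side, was at 246.1 and 261.3 against 347.1 and 350.9 (-0.46), the smallest difference of the group. It held the highest level of the members in mouse and the second highest in ferret. Differences of both genes stayed negative and under the required size after rescaling (-0.17 and -0.07) and quantile normalization (-0.12 and -0.09).

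Complex IV also has isoforms that are made mainly in certain tissues. All 3 of those that passed the filter were called, in both directions. Cox7a1, the heart and skeletal muscle isoform of its subunit, was higher in ferret, at 85.4 and 79.7 FPKM against 16.7 and 17.7 in mouse (chromosome 7, 30184144 to 30186078, plus strand). Its log2 difference was 2.201 (SE 0.064, limma adjusted p = 7.13e-10), or 4.81-fold higher, the largest positive difference among the members. Of 10 striated muscle markers 8 were shared and none reached the filter, with sums of 0.432 and 0.285 FPKM in ferret and 0.411 and 0.368 in mouse and Myod1 and Myog listed at 0 in both species.

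Cox6b2, an isoform best known from testis, was lower in ferret, at 4.10 and 1.33 FPKM against 87.0 and 91.6 in mouse (chromosome 7, 4751792 to 4753094, minus strand; -4.71, SE 0.272, limma adjusted p = 8.79e-08). The ferret libraries differed from each other by more than for any other called member, and the difference was -5.27 without ferret replicate 1 and -4.15 without ferret replicate 2. As a share of Cox6b1 and Cox6b2 together, Cox6b2 made up 1.64% and 0.508% in ferret and 20.05% and 20.7% in mouse. Cox4i2, an isoform of subunit IV known from lung, was at 0.212 and 0.149 FPKM in ferret and 3.44 and 4.34 in mouse (chromosome 2, 152754173 to 152765037, plus strand). Its difference was -2.04 (SE 0.099, limma adjusted p = 2.48e-08), and -3.83 with 0.1 in place of 1 added to FPKM, and it passed the filter through its mouse level alone.

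The other 3 restricted isoforms did not pass the filter and were not tested. Cox6a2, the heart and muscle isoform of its subunit, was at 0.066 and 0 FPKM in ferret and 0.487 and 0.181 in mouse, and Cox7b2 was at 0.550 and 0 against 0.144 and 0.303. Ndufa4l2, a relative of Ndufa4 that low oxygen induces, was at 0 and 0.818 against 0.185 and 0. Cox4i1, the common partner of Cox4i2, was found under that symbol in neither species. The common partners Cox6a1, Cox7a2 and Cox7b had no ferret symbol. In mouse, Cox7a1 made up 8.27% and 8.69% of Cox7a1 and Cox7a2 together, and Cox6a2 made up 0.169% and 0.057% of Cox6a2 and Cox6a1.

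Of the 4 matched assembly factors of complex IV, 1 was called lower. Cox18, which inserts a domain of the mitochondrially encoded subunit COX2 into the membrane, was at 3.58 and 2.84 FPKM in ferret and 13.0 and 13.1 in mouse (-1.74, SE 0.091, limma adjusted p = 4.35e-08). The heme enzymes Cox10 and Cox15, which make heme O and heme A in turn, were not called and lay at -0.74 and 0.47. Cox11, which delivers copper, had the smallest difference, at 6.68 and 7.03 against 6.56 and 6.88 (0.03, limma adjusted p = 0.744), and its libraries overlapped. The group's median was -0.36 as deposited, -0.02 rescaled and 0.05 after quantile normalization.

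**Figure D4:**
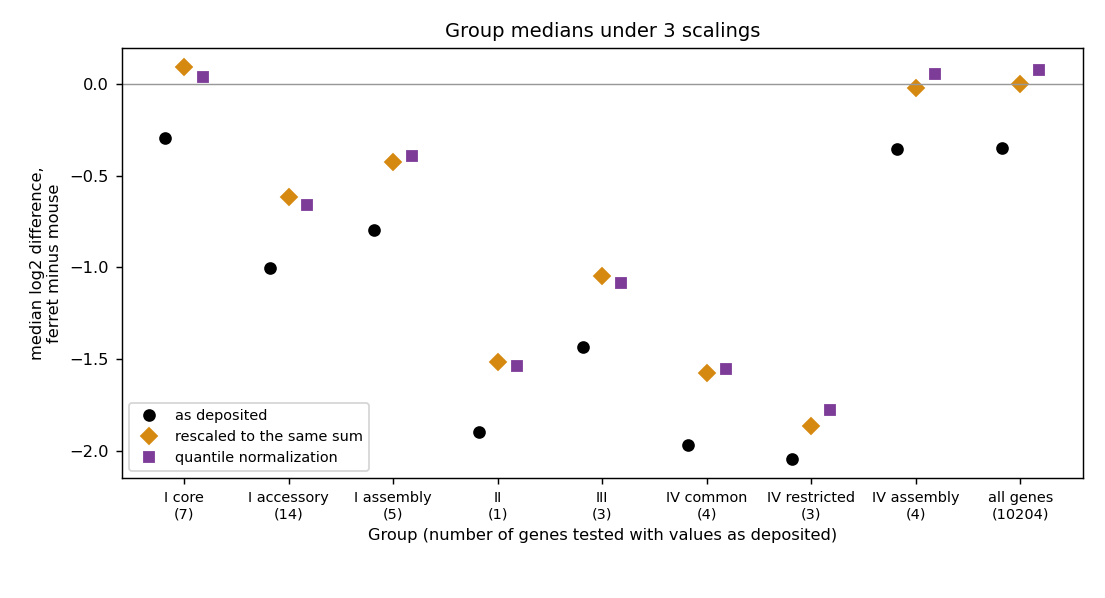
Median log2 difference of ferret minus mouse (vertical axis) in each gene group and over all tested genes, for values as deposited (circles), rescaled to the same library sum (diamonds) and quantile normalized (squares), with the number of genes in parentheses. As deposited the medians run from -0.30 for the core subunits of complex I to -2.04 for the 3 restricted isoforms of complex IV, beside -0.35 for all genes, and both scalings move the core subunits and all genes to about 0.

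Subunits of a complex are needed in fixed proportions, and the FPKM of the matched ones were closer to each other in mouse than in ferret. Over the 21 matched complex I subunits the mean FPKM in mouse ran from 57.6 (Ndufv1) to 185 (Ndufc1), a 3.21-fold range. In ferret it ran from 5.89 (Ndufc1) to 139.6 (Ndufb10), a 23.7-fold range. The SD of log2(FPKM + 1) over these genes within a library was 1.11 and 1.15 in ferret and 0.486 and 0.478 in mouse. For the 4 widely expressed complex IV subunits the SD was 1.84 and 1.83 against 0.282 and 0.239, and for the 3 complex III subunits it was 2.92 and 2.88 against 0.562 and 0.594. In each of these sets both ferret libraries lay above both mouse libraries. With the unmatched mouse genes included, the mouse means ran from 44.7 (Ndufb4) to 198.4 (Ndufa3) in complex I. They ran from 75.1 (Uqcrfs1) to 357.7 (Uqcrh) in complex III. Among the widely expressed complex IV subunits they ran from 161.5 (Cox7b) to 421.8 (Cox8a). These mouse ranges were wider than those of the matched genes, and the ferret tables had no such symbols. The SD as a measure of spread was chosen after the values were seen and is given without a test.

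Other mitochondrial gene lists differed less between species in this measure. For the 9 assembly factors of complexes I and IV the SD was 0.896 and 0.944 in ferret and 0.745 and 0.801 in mouse. For 58 mitochondrial ribosomal protein genes it was 1.10 and 1.11 against 0.876 and 0.878, and for 10 citric acid cycle enzymes 0.915 and 0.961 against 0.690 and 0.662. For 12 import and outer membrane genes the order was the other way, at 0.819 and 0.848 against 0.995 and 0.988, and for 33 other assembly factors and carriers the SD was 1.42 and 1.46 against 1.42 and 1.43.

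**Figure D5:**
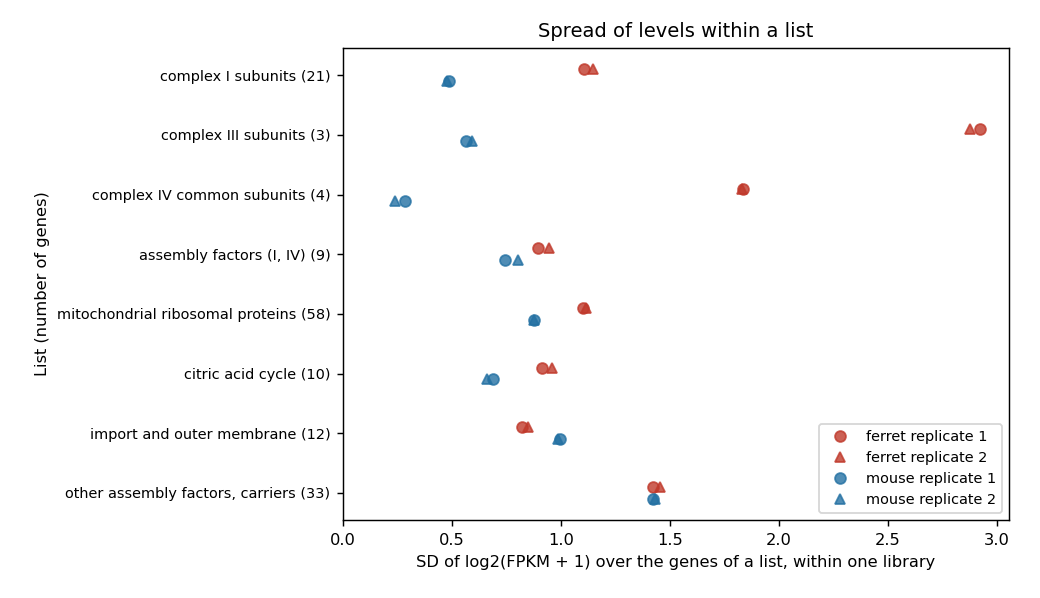
SD of log2(FPKM + 1) over the genes of each list, one point for each library of ferret and mouse. The matched subunits of complex I, complex III and the widely expressed set of complex IV lie higher in both ferret libraries (1.11 to 2.92). Both mouse libraries lie at 0.239 to 0.594 there, and the import genes lie lower in ferret than in mouse.

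Ratios within a library do not depend on how libraries are scaled to each other, and pairs from the same complex, chosen after their values were seen, are given here as a description. Ndufc1 stood at 4.33% and 4.12% of Ndufb10 in ferret and at 140.7% and 139.9% in mouse. Uqcrq was at 1.45% and 1.58% of Uqcr10 against 88.5% and 95.03%.

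In complex IV, Cox5b was at 10.3% and 10.7% of Cox5a in ferret and at 92.05% and 96.5% in mouse, and Ndufa4 was at 12.0% and 11.6% of Cox6b1 against 90.35% and 92.25%. In every pair the 2 libraries of a species were close. Each pair set a gene called lower beside one not called, so the distance between species follows from that choice and adds no support. The ratios also still depend on the gene models of each species. Across genes, the Spearman correlation of mean FPKM between the species was 0.46 over the 41 members, 0.03 over the 21 complex I subunits and 0.68 over all 10204 tested genes. The mouse means of the 21 complex I subunits span a narrow range (3.21-fold, against 89.8-fold over the 41 members). A narrow range can itself lower a rank correlation, so these correlations cannot be ranked against each other. Genes share the same libraries and are not independent, so no p is given.

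The differences were set beside the length of the mouse genes. The 15 tested members with a coding length under 500 bp had a median difference of -0.73, with 7 lower and 1 higher, and the 26 longer ones had a median of -0.68, with 10 lower and 1 higher. The medians do not show the extremes, which lay in short genes. Farthest down were Uqcrq (-5.26, 246 bp), Ndufc1 (-4.75, 228 bp), Cox6b2 (-4.71, 312 bp), Cox5b (-3.66, 387 bp), Ndufa4 (-3.37, 246 bp) and Ndufa6 (-2.74, 393 bp). Among the longer genes, Ndufs7 was farthest down (-2.47, 672 bp). The short genes Cox7a1 (2.201, 267 bp) and Uqcr10 (0.41, 192 bp) lay the other way. The study lists gene lengths beside its FPKM, but those of the ferret gene models were not used here, and an effect of length was not tested. For 5 members the mouse genome holds a copy with a coding sequence at least 95% identical over 80% of its length, so reads may be split between the copies. The copies of Ndufa12 and Cox5b had 40.6 and 50.1 FPKM and 10.8 and 13.8 FPKM in mouse, that of Ndufs3 had 8.01 and 7.96, and those of Ndufb11 and Uqcr10 stayed under 1.

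Genes that act with the respiratory chain but lie outside the symbol rule were counted in the same fit, beside the shares of all tested genes given above (30.1% lower and 13.1% higher as deposited, 21.7% and 19.3% rescaled). Of 33 other assembly factors and carriers, 7 were lower (21.2%) and 2 higher (6.06%) in ferret, with 4 and 3 after rescaling, and their median of -0.35 was that of all genes. Lyrm7, a chaperone of the Rieske protein, was at 0.687 and 0.490 FPKM in ferret against 13.1 and 11.5 in mouse (-3.07) and passed the filter through mouse alone, and Uqcc2, needed for cytochrome b, was at -2.03. Sdhaf3, an assembly factor of complex II, was higher at 16.7 and 18.4 against 1.61 and 1.24 (2.94), as was Higd1a (1.32), which associates with complex IV.

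Of 12 regulators of mitochondrial biogenesis, 6 were lower (50%) and none was higher, with a median of -0.997. The lower calls were 4 (33.3%) after rescaling and 3 after quantile normalization, 25% against 20.4% of all genes. Ppargc1a, a coactivator of mitochondrial genes, stood at 0.334 and 0.259 FPKM in ferret and 7.09 and 8.40 in mouse (-2.75) and passed the filter through mouse alone, and Tfam, which packages mitochondrial DNA, was at -1.62. Of 10 citric acid cycle enzymes 6 were lower (60%) and none higher, with a median of -1.06 and 3 lower (30%) after rescaling, led by the isocitrate dehydrogenase subunit Idh3g (-2.78) and the malate dehydrogenase Mdh2 (-2.38).

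Of 12 import and outer membrane genes, 2 were lower (16.7%), the channel Vdac2 (-1.91) and the chaperone Hspa9 (-1.53), and the import subunit Timm50 was higher (1.22), with a median of -0.58. Of 58 mitochondrial ribosomal protein genes 17 were lower (29.3%) and 3 higher (5.17%), with a median of -0.27. As deposited, the lower calls were near the all-gene share of 30.1%, and the higher calls were under the share of 13.1%. The split became 10 lower (17.2%) and 13 higher (22.4%) after rescaling, beside 21.7% and 19.3% of all genes. The largest differences were Mrps6 (-3.11) and Mrpl58 (-2.26) among the lower and Mrpl47 (1.80) and Mrpl18 (1.63) among the higher. Of 13 hypoxia response genes 6 were lower (46.2%) and 2 higher (15.4%), with a median of -0.52, and 3 and 3 (23.1% each) after rescaling, near the all-gene shares. The oxygen-regulated factor Hif1a was higher at 85.1 and 82.7 FPKM against 20.6 and 20.2 (1.99), as was Ankrd37 (1.38), which passed the filter through ferret alone. Epas1, a relative of Hif1a, was lower at 4.65 and 5.47 against 26.0 and 27.7 (-2.20), as was the growth factor Vegfa (-1.86).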

How the data were processed

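RNA was sequenced in 2 ferret and 2 mouse libraries of cultured astrocytes after poly(A) selection with a stranded kit. The authors aligned reads with STAR v2.7.0f to MusPutFur1.0 (ferret) or GRCm38 (mouse) and deposited FPKM from Cufflinks v2.2.1 with the Ensembl annotation of each species, so each value depends on that species' gene model. FPKM give no read number, and the read counts that the study also lists were not used here. Precision is limited by 2 libraries per species.

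Symbols were joined without regard to case, and for a symbol with several rows the row with the highest species mean was used. The 10204 symbols whose mean reached 1 FPKM in ferret or in mouse were fitted on log2(FPKM + 1) with limma 3.58.1 in R 4.3.3 (species as the only term, trended empirical Bayes), with Benjamini-Hochberg adjustment over all of them. Calls required a log2 difference larger than 1 in size together with an adjusted p below 0.05. An exact permutation of 2 against 2 libraries cannot reach 0.05 and was not used. On simulated data for the 10204 genes, 100% of 200 genes changed by 1.5 were called and 0 unchanged ones. The simulation gave every gene the same small noise, and the changed genes were taken from those at higher levels. The change of 1.5 lay above the size required for a call, so the outcome was nearly fixed. It checks the code and says nothing about low genes, uneven replicates or gene models in the real libraries.

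Members and lists were chosen with earlier results of these data known. 1 member is not reported here by name and stays in the counts and medians. Full values are given for the other core subunits of complex I, for Sdhc and Uqcrc1, for isoform pairs, for the 3 largest calls in each direction per group and for the smallest difference per group; the 2 largest calls in each direction are named for related lists. Ndufab1, Ndufb10, Sdhb and the pairs set as ratios were added after their values were seen. Mouse positions and lengths came from GENCODE M21 (GRCm38), another release than the authors used, and near-identical copies from blastn 2.17.0. Alternatives were a pseudocount of 0.1, no filter, rescaling to the mean library sum, quantile normalization, a replicate block, summed rows and leaving out each library. The difference relative to the all-gene median and the spread within related lists were added after the data were seen. No sequences are shown.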

Additional observations from a re-analysis of the deposited data

How the results depend on the processing

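Pseudocount 0.1, no filter, summed rows and each library left out kept all 17 lower calls among the members, and the 2 higher calls became 1 to 2 without a library (0 to 1 among complex I assembly factors, where Ndufaf3 lost its call). The scalings moved most group medians and few counts. All genes called higher rose from 1336 to 2110 with quantile normalization. Medians after rescaling and quantile normalization were 0.089 and 0.034 for complex I core subunits, -0.62 and -0.66 for accessory subunits, -0.43 and -0.39 for complex I assembly factors (0 lower in both), -1.51 and -1.53 for complex II, -1.05 and -1.08 for complex III, -1.58 and -1.55 for widely expressed complex IV subunits, and -0.024 and 0.055 for complex IV assembly factors. The last was -0.42 with pseudocount 0.1 and -0.38 to -0.34 without a mouse library. The restricted isoforms had -3.83 with pseudocount 0.1 and -0.17 with no filter, where the untested isoforms enter. Signs turned after rescaling and quantile normalization for Ndufa10 (0.14, 0.063), Ndufb11 (0.32, 0.28), Ndufs1 (0.089, 0.034), Ndufv1 (0.33, 0.27) and Ndufv2 (0.39, 0.34). With each library left out, Ndufv1 ran from -0.11 to 0.0026, Ndufv2 from -0.086 to 0.082 and Cox11 from -0.0062 to 0.057. Apart from the scalings' and lists' own construction, the cause was not tested.

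The replicate numbers do not pair the samples (correlation of deviations 0.0099). A fit with the replicate block called 1342 genes higher over all genes and kept the same 17 lower and 2 higher members.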

Other observations

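Some mouse symbols of this kind match no listed symbol and have no ferret symbol. The mouse annotation types Ndufb4c and Cox6c2 as processed pseudogenes and Ndufb1-ps as a long noncoding RNA of a bidirectional promoter. The listed subunit Ndufb1 was found under that symbol in neither species. Ndufb4c stood at 36.9 and 39.6 FPKM beside 45.2 and 44.1 for Ndufb4, and Cox6c2 stood at 32.2 and 32.1 beside 344 and 349.5 for Cox6c. Ndufb1-ps stood at 108.3 and 113.3 FPKM.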
